A study of Homo sapiens with 6 samples.

Results

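The 42 genes described here make, move or sense cholesterol and fatty acids, and they were chosen by symbol from a list of names with no threshold on their values, with earlier results of these data known. All 42 were found among the 60504 genes of the count table. The list holds 5 regulators of the SREBP transcription factors, 18 enzymes of sterol synthesis, 3 proteins of intracellular sterol transport, 5 genes of the liver X receptor (LXR) and sterol efflux arm, 9 genes of fatty acid synthesis, elongation and desaturation, and 2 acyl-CoA synthetases that activate fatty acids. They were measured by RNA-seq in SK-MEL-28, an established human melanoma cell line. Cells had been transfected with an empty vector plasmid (EV, 3 libraries) or with a plasmid for HDAC8, a class I histone deacetylase (3 libraries). Both groups carried a plasmid, were kept in hygromycin and were harvested before confluence without further treatment. The labels number 3 biological replicates per group and do not say whether these were separate transfections or clones, so p-values measure the spread between these samples, which may be technical.

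Of the 42 genes, 41 passed the filter on low counts and were tested among 16195 genes. A gene is called higher or lower in the libraries labelled HDAC8 where the Benjamini-Hochberg adjusted p of edgeR's quasi-likelihood test lay below 0.05 over all tested genes. Of the 41, 6 were higher (STARD4, ACSL1, MSMO1, EBP, ACSL3 and ACLY) and 7 were lower (MYLIP, NR1H3, NPC1, MVK, ELOVL1, SREBF1 and SCD), which is 31.7%. Over all tested genes 22.7% were called (11.1% higher and 11.7% lower). STARD4, a carrier of cholesterol through the cytosol, was the only one of the 41 that also reached an absolute log2 fold change of 0.58, a threshold that 7.52% of all tested genes passed with the adjusted p (4.07% higher and 3.45% lower). The count of lower genes depended on single libraries and was 2 without EV replicate 1, 3 without EV replicate 3 or without HDAC8 replicate 1, and 4 without HDAC8 replicate 2. Each call was recomputed in 12 alternative fits, which used another tool, scaling, filter or blocking or left out 1 library. Calls lost with blocking are given with the other settings at the end.

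Cells control sterol synthesis through SREBP-2 (SREBF2) and fatty acid synthesis largely through SREBP-1 (SREBF1), which are held in the endoplasmic reticulum while sterol is plentiful. SCAP escorts the precursors to the Golgi for cleavage, INSIG1 and INSIG2 retain the complex, and the released factors bind sterol response elements, often beside an NF-Y box, in the promoters of the synthesis genes. Oxysterols made when sterol accumulates activate the LXRs (NR1H3 and NR1H2), which raise efflux transporters such as ABCA1 and ABCG1, the ubiquitin ligase MYLIP and SREBF1 itself. Lipid synthesis feeds membranes, lipid droplets and signalling lipids in proliferating melanoma cells.

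The values of the whole data set that touch these results are few. Library totals lay between 20850018 and 29822917 counts, and each level is a CPM value, scaled to library size with TMM, with 3 counts (0.101 to 0.144 CPM) taken as the smallest detectable level, for counting error only. Mitochondrial genes took 1.18 to 1.54% of the counts. HDAC8 itself (ENSG00000147099) was at 16.6, 15.2 and 11.8 CPM in the libraries labelled EV and 14.2, 15.2 and 13.5 CPM in the HDAC8 libraries. With a log2 fold change of -0.024 (95% interval -0.31 to 0.26, adjusted p = 0.924), the transfected gene itself did not differ in the test, and each direction given here is that of the libraries as labelled. Of 8 melanocytic markers all were tested; PMEL, TYR, SOX10 and TYRP1 were higher, DCT, S100B and MITF were lower, and their summed level was 6470 to 6859 CPM in the EV and 7492 to 8016 CPM in the HDAC8 libraries. PMEL alone went from a mean of 4149 to 5254 CPM, and the mean log2 CPM over the 8 markers differed by -0.029. Of 15 markers of other cell types 10 were too low to test, with PTPRC, CD3E, EPCAM, CDH5 and KRT5 at 0 to 1 count per library. KRT14 and ALB had 0 to 5 counts. PECAM1 and DCN had 17 and 16 counts in HDAC8 replicate 1 and 0 to 9 counts in the other libraries. Of the 5 tested, LUM (log2 fold change 0.44, adjusted p = 0.000615) and KRT18 (0.24, adjusted p = 0.0378) were higher and none was lower. The summed level of the 15 was 143 to 151 CPM and 164 to 179 CPM, most of it KRT18, LUM and CD68, and its part in the results below was not tested.

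The promoters of these genes were searched for letters that bear on SREBP control, and 4 are shown because they belong to the gene with the largest called rise, the called gene with a sterol response element, the gene with the largest called fall and the SREBP-2 gene. Each is the RefSeq window of 300 bases on GRCh38.p14, from 250 before to 50 after a start site, written 5′ to 3′ on the strand of the gene, and capitals mark a sterol response element (TCACNCCAC) or an NF-Y box (CCAAT) on either strand. STARD4 lies at chr5:111512486-111512785 (minus strand), MYLIP at chr6:16128836-16129135 (plus strand), SREBF2 at chr22:41832855-41833154 (plus strand), and the ACSL1 window, the third of 5 RefSeq start sites of that gene, at chr4:184805504-184805803 (minus strand).
STARD4: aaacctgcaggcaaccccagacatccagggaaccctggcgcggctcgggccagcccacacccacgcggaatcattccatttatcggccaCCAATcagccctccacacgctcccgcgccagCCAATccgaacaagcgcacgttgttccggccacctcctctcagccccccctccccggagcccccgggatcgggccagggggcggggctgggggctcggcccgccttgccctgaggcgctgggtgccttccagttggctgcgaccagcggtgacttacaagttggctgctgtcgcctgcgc
MYLIP: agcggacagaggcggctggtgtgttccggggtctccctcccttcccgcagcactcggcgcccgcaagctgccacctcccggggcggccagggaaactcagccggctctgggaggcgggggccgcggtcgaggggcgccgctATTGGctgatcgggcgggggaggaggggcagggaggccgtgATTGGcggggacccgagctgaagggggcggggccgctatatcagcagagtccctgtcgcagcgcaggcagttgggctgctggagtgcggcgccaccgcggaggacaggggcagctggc
SREBF2: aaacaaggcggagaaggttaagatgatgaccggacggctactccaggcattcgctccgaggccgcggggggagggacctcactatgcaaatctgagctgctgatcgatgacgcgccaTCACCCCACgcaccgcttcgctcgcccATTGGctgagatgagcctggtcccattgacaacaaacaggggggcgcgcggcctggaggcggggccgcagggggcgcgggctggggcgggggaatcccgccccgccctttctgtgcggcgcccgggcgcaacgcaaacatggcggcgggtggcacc
ACSL1: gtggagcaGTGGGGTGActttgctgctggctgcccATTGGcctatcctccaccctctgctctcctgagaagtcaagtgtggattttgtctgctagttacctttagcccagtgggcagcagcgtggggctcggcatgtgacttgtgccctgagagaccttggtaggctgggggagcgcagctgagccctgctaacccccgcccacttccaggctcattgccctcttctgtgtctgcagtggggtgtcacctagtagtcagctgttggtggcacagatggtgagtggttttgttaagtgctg

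RefSeq windows were found for 37 of the 42 genes, 55 windows in all. The promoter set used here held no window for ACAT2, FDFT1, SQLE, ABCG1 and FASN. The NF-Y box was present in at least 1 window of 27 of the 37 genes (73.0%), against 39.7% of 27305 genes with a window and 43.1% of the 10774 tested genes with one. Counted by window, it was in 56.4% of the 55 and in 34.6% of all 35116. The sterol response element was found in SREBF2 and ACSL1 only. These are 5.41% of the 37 genes, against 1.39% of all genes and 1.43% of the tested genes. In ACSL1 it was in the third of 5 windows only. By window, the element was in 3.64% of the 55 and in 1.13% of all 35116. In the SREBF2 window and in that ACSL1 window an NF-Y box stood downstream of it without overlap, as the sequences above show. The E-box CACGTG, another SREBP-binding sequence, was in 6 of the 37 genes (16.2%, against 8.77% of all genes and 12.5% of the tested genes): SCAP, INSIG1, LSS, SC5D, ABCA1 and ELOVL5. The NF-Y box was in 11 of the 13 called genes and in 16 of the 24 others, and the E-box in 0 of the 13. These counts are a description of letters in a window, and a gene without a match may hold such a site elsewhere.

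**Figure D1:**
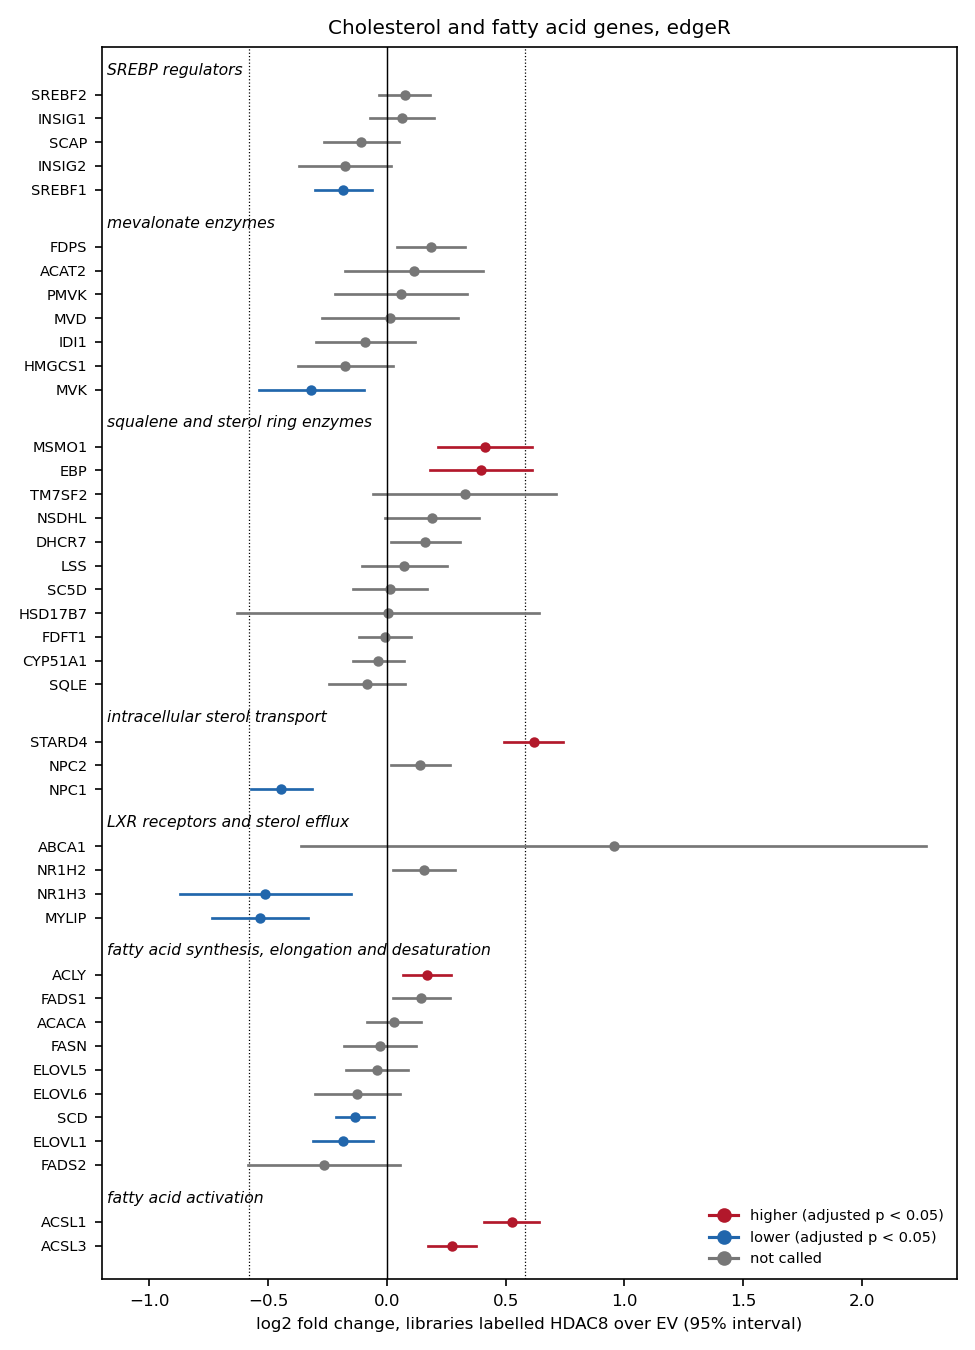
Log2 fold change (x axis, libraries labelled HDAC8 over EV, 3 against 3) of the 41 tested genes by functional list, with bars for the 95% interval of edgeR's fit and dotted lines at an absolute log2 fold change of 0.58. Most intervals lie between the dotted lines, STARD4 is the called gene farthest to the right at 0.62, MYLIP the one farthest to the left at -0.53, and the interval of ABCA1 runs from -0.36 to 2.27.

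Among the SREBP regulators, 1 of 5 tested genes was called, and the median log2 fold change of the 5 was -0.11, against 0.0091 over all tested genes. SREBF1 (ENSG00000072310, chromosome 17 from 17810399 to 17837002 on GRCh38), the gene of SREBP-1, was at 265.0, 248 and 260 CPM in the EV libraries and 216, 220 and 244 CPM in the HDAC8 libraries. Every HDAC8 library lay below every EV library, although HDAC8 replicate 3 came close to EV replicate 2. The level of SREBF1 fell by 11.9% (log2 fold change -0.18, standard error 0.055, adjusted p = 0.0315). This call was lost without EV replicate 1, EV replicate 3, HDAC8 replicate 1 or HDAC8 replicate 2, where the adjusted p reached 0.127 at most over the alternatives run, and the log2 fold change stayed between -0.25 and -0.15.

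SREBF2 (ENSG00000198911), the gene of SREBP-2, was at 257, 235 and 252 CPM in the EV and 252.5, 263 and 269 CPM in the HDAC8 libraries. Its groups overlapped and its log2 fold change of 0.074 was not called (95% interval -0.033 to 0.18, adjusted p = 0.328). SCAP (ENSG00000114650), the escort protein, was at 83.3, 82.9 and 88.5 CPM against 71.0, 78.9 and 86.7 CPM, with the highest HDAC8 library inside the EV range (log2 fold change -0.11, 95% interval -0.27 to 0.050, adjusted p = 0.332). INSIG1 and INSIG2, which hold SCAP in the endoplasmic reticulum, had log2 fold changes of 0.063 and -0.18 and were not called. All 5 intervals lay within a log2 fold change of 0.58 in either direction.

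Of the 18 sterol synthesis enzymes, 2 were higher and 1 was lower, 16.7% of the list, and the median log2 fold change was 0.037. In the mevalonate part, which builds isoprenoid units from acetyl-CoA, 1 of 7 tested genes was lower and none was higher. Without adjustment, 1 of the 7 was higher at p below 0.05, and DESeq2 called 0 of them in either direction. MVK (ENSG00000110921, chromosome 12 from 109573255 to 109598125), mevalonate kinase, was at 16.9, 16.1 and 16.7 CPM in the EV libraries and 12.2, 14.7 and 13.0 CPM in the HDAC8 libraries. The EV libraries lay close together and above all 3 HDAC8 libraries. MVK fell by 19.6% (log2 fold change -0.32, standard error 0.10, adjusted p = 0.0419), a call that was lost with DESeq2, without the filter on low counts, and without EV replicate 1, 2 or 3 or HDAC8 replicate 1 or 3, with adjusted p up to 0.136.

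FDPS (ENSG00000160752), farnesyl diphosphate synthase, was at 46.4, 46.8 and 47.0 CPM in the EV and 51.7, 57.2 and 50.7 CPM in the HDAC8 libraries. Its log2 fold change of 0.18 (95% interval 0.042 to 0.33) missed the threshold with an adjusted p of 0.0627. Genes on the opposite strand cover 18.6% of the exon bases of FDPS in GENCODE 44, 37.7% of those of HMGCS1 and 22.2% of those of ACAT2, and whether the counting used strand is not given in the sources used here. The other 5, the thiolase ACAT2, the HMG-CoA synthase HMGCS1, the kinase PMVK, the decarboxylase MVD and the isomerase IDI1, had log2 fold changes between -0.18 (HMGCS1) and 0.11 (ACAT2), and none was called. The sign of PMVK and of MVD depended on the library left out.

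In the second part of the pathway, from squalene through the sterol rings to cholesterol, 2 of 11 tested genes were higher and none was lower. At an unadjusted p below 0.05, 3 were higher and 0 lower, and DESeq2 called 2 and 0. MSMO1 (ENSG00000052802, chromosome 4 from 165327667 to 165343164), a methylsterol monooxygenase that acts after CYP51A1, was at 22.7, 19.97 and 21.4 CPM in the EV and 28.2, 31.0 and 25.9 CPM in the HDAC8 libraries. Its lowest HDAC8 library stood above its highest EV library, and MSMO1 was 33.2% higher (log2 fold change 0.41, standard error 0.090, adjusted p = 0.00594). EBP (ENSG00000147155, chromosome X from 48521799 to 48528716), a sterol isomerase later in the pathway, was at 22.7, 19.3 and 20.5 CPM against 24.9, 26.7 and 30.7 CPM. The groups of EBP were likewise apart, with a rise of 31.6% (log2 fold change 0.40, standard error 0.099, adjusted p = 0.0128), which was not called without EV replicate 2 or EV replicate 3 (adjusted p up to 0.0626). A transcript on the same strand covers 36.4% of the EBP exon bases, so its reads are uncertain.

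DHCR7 (ENSG00000172893), the reductase of the last step to cholesterol, was at 185, 166 and 195 CPM in the EV and 189, 207 and 215 CPM in the HDAC8 libraries. These ranges overlapped, and the log2 fold change of 0.16 (95% interval 0.017 to 0.31) was not called (adjusted p = 0.108). The remaining 8 ran in order of log2 fold change from the sterol reductase TM7SF2 (0.33) and the dehydrogenase NSDHL (0.19) through the cyclase LSS (0.074), the desaturase SC5D (0.014), the reductase HSD17B7 (0.0054), the squalene synthase FDFT1 (-0.0075) and the demethylase CYP51A1 (-0.036) to the squalene epoxidase SQLE (-0.084). None of the 8 was called. TM7SF2 and HSD17B7 lay below 10 CPM, and their intervals, like those of MSMO1 and EBP, reached 0.58. SQLE, FDFT1 and CYP51A1, which bracket the first ring-forming steps, had intervals that stayed within 0.25 of 0 on the log2 scale.

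Of the 3 genes of intracellular sterol transport, 1 was higher and 1 was lower, with a median log2 fold change of 0.14. STARD4 (ENSG00000164211, chromosome 5 from 111496033 to 111512590), the cytosolic sterol carrier whose promoter is shown above, was at 44.9, 44.2 and 46.9 CPM in the EV and 69.8, 67.8 and 71.0 CPM in the HDAC8 libraries. The replicates of each group lay within 4 CPM of each other and the groups were far apart. STARD4 was 53.4% higher (log2 fold change 0.62, standard error 0.058, 95% interval 0.49 to 0.74, adjusted p = 1.2e-05), and it was called in all 12 alternatives with a log2 fold change between 0.59 and 0.64. NPC1 (ENSG00000141458, chromosome 18 from 23506184 to 23586506), the membrane protein that exports cholesterol from lysosomes, was at 139, 133.5 and 145 CPM in the EV and 96.0, 102 and 109 CPM in the HDAC8 libraries. All 3 HDAC8 libraries were lower, and NPC1 fell by 26.5% (log2 fold change -0.45, standard error 0.059, adjusted p = 0.000197), also called in all 12 alternatives. NPC2 (ENSG00000119655), the soluble partner that hands cholesterol to NPC1 inside the lysosome, had a log2 fold change of 0.14 (95% interval 0.017 to 0.27) and was not called, with an adjusted p of 0.101.

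**Figure D2:**
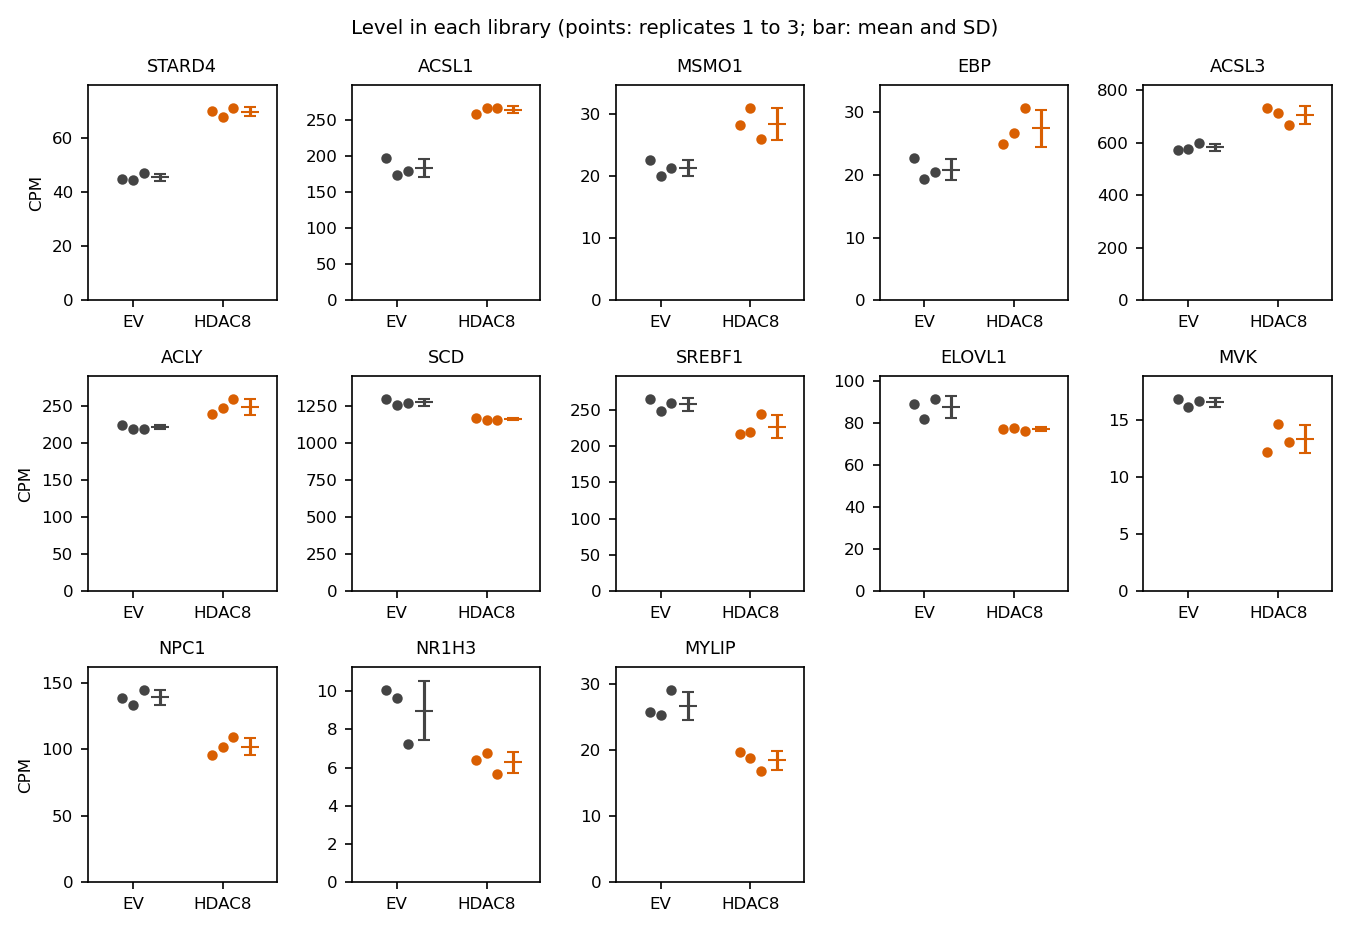
CPM (y axis, from 0) of the 13 called genes in each of the 3 libraries labelled EV and 3 labelled HDAC8; each point is a library and the bar beside the points is the mean with its SD. STARD4 sits at 44 to 47 CPM in the EV and 67 to 72 CPM in the HDAC8 libraries. SCD, at 1254 to 1300 CPM in the EV and 1154 to 1168 CPM in the HDAC8 libraries, fell by 9.01%.

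In the LXR and sterol efflux arm, 4 of 5 genes were tested, 2 were lower and none was higher, with a median log2 fold change of -0.18. At an unadjusted p below 0.05, 1 was higher and 2 were lower, and DESeq2 called 0 higher and 1 lower. MYLIP (ENSG00000007944, chromosome 6 from 16129086 to 16148248), the ubiquitin ligase that LXRs induce and that marks lipoprotein receptors for degradation, was at 25.9, 25.3 and 29.2 CPM in the EV and 19.7, 18.8 and 16.9 CPM in the HDAC8 libraries. The groups were clearly separate, and MYLIP fell by 31.0% (log2 fold change -0.53, standard error 0.092, adjusted p = 0.00134) and was called in all 12 alternatives. NR1H3 (ENSG00000025434, chromosome 11 from 47248300 to 47269033), the gene of LXR alpha, was at 10.1, 9.62 and 7.24 CPM against 6.42, 6.76 and 5.69 CPM. EV replicate 3 lay near the HDAC8 libraries. NR1H3 fell by 30.0% (log2 fold change -0.51, standard error 0.16, adjusted p = 0.0434), which was not called with DESeq2 or without EV replicate 1 or 2 or any of the HDAC8 libraries (adjusted p up to 0.174). NR1H2 (ENSG00000131408), the gene of LXR beta, was at 46.9, 44.1 and 45.1 CPM and 51.1, 50.1 and 50.3 CPM, and its log2 fold change of 0.15 (95% interval 0.024 to 0.28) was not called (adjusted p = 0.0869). A gene on the opposite strand covers 22.1% of the NR1H2 exon bases.

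The efflux transporters were low, at 0.543 to 3.33 CPM for ABCA1 and 0 to 0.985 CPM for ABCG1. ABCA1 (ENSG00000165029), which loads cholesterol onto lipoprotein particles, had 12, 15 and 34 counts in the EV and 98, 11 and 27 counts in the HDAC8 libraries. Only HDAC8 replicate 1 stood above the EV range of ABCA1, so that the log2 fold change, 0.96 with a standard error of 0.60 (adjusted p = 0.301), became -0.035 without that library. ABCG1 (ENSG00000160179), a second transporter, had 0, 0 and 3 counts against 29, 0 and 0 counts and was not tested in the main fit.

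For fatty acid synthesis, elongation and desaturation, 1 of 9 tested genes was higher and 2 were lower (33.3%), with a median log2 fold change of -0.040. ACLY (ENSG00000131473, chromosome 17 from 41866917 to 41930542), which makes cytosolic acetyl-CoA from citrate for both pathways, was at 224, 219 and 220 CPM in the EV and 239, 247 and 260 CPM in the HDAC8 libraries. The 3 EV libraries lay within 5 CPM of each other and below every HDAC8 library. ACLY was 12.5% higher (log2 fold change 0.17, standard error 0.046, adjusted p = 0.0210). That call was lost when libraries were scaled by their totals alone and without any of the EV libraries or HDAC8 replicate 2 (adjusted p up to 0.0943). ACACA, the carboxylase that commits acetyl-CoA to fatty acids, and FASN, the fatty acid synthase, had log2 fold changes of 0.029 and -0.028, and both intervals lay within 0.18 of 0. FASN was at 1242, 1140 and 1257 CPM in the EV and 1061, 1188 and 1322 CPM in the HDAC8 libraries, and the HDAC8 range enclosed the EV range.

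SCD (ENSG00000099194, chromosome 10 from 100347233 to 100364826), the desaturase that makes oleate from stearate and the gene with the highest level per kb of the 42, was at 1300, 1254 and 1271 CPM in the EV and 1168, 1154 and 1159 CPM in the HDAC8 libraries. Both groups were tight and apart, and SCD fell by 9.01% (log2 fold change -0.14, standard error 0.036, adjusted p = 0.0184), which was not called without EV replicate 1 or EV replicate 3 (adjusted p up to 0.0793). ELOVL1 (ENSG00000066322, chromosome 1 from 43363398 to 43368074), an elongase of very long saturated fatty acids, was at 89.1, 81.6 and 91.4 CPM against 77.1, 77.6 and 76.0 CPM. ELOVL1 was lower in every HDAC8 library (log2 fold change -0.18, standard error 0.058, adjusted p = 0.0393), and this call was lost without EV replicate 1, EV replicate 3, HDAC8 replicate 1 or HDAC8 replicate 2 (adjusted p up to 0.173). The elongases ELOVL5 (-0.040) and ELOVL6 (-0.12) and the desaturases FADS1 (0.15) and FADS2 (-0.26) were not called at these log2 fold changes. FADS1 and FADS2, neighbours that act on polyunsaturated fatty acids, overlap on opposite strands over fewer than 5% of their exon bases.

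Both acyl-CoA synthetases, which attach coenzyme A to long-chain fatty acids before these are used, were higher. ACSL1 (ENSG00000151726, chromosome 4 from 184755595 to 184826818) was at 197, 175 and 179 CPM in the EV and 259, 267 and 267 CPM in the HDAC8 libraries. No EV library of ACSL1 came near the HDAC8 range, and the rise was 43.9% (log2 fold change 0.53, standard error 0.053, adjusted p = 2.13e-05). ACSL3 (ENSG00000123983, chromosome 2 from 222860942 to 222944639), an isoform of lipid droplets and the endoplasmic reticulum, was at 574, 575 and 599 CPM against 733, 715 and 667 CPM. It rose by 21.0% (log2 fold change 0.28, standard error 0.046, adjusted p = 0.00109), with all HDAC8 libraries higher. Both genes were called in all 12 alternatives.

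The size of these differences can be read against genes above a shared floor of 10 CPM, which does not match levels gene by gene. With a mean of at least 10 CPM, 12 of 36 members (33.3%) and 29.9% of 9780 tested genes were called, and the median absolute log2 fold change was 0.143 for the members and 0.139 for all. Over all levels it was 0.154 for the 41 members against 0.190 for the 16195 genes. For 31 of the 41 members the 95% interval lay wholly within a log2 fold change of 0.58 in either direction, and for 10 it reached that size. No more than STARD4 among the members, 2.44%, passed both thresholds.

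**Figure D3:**
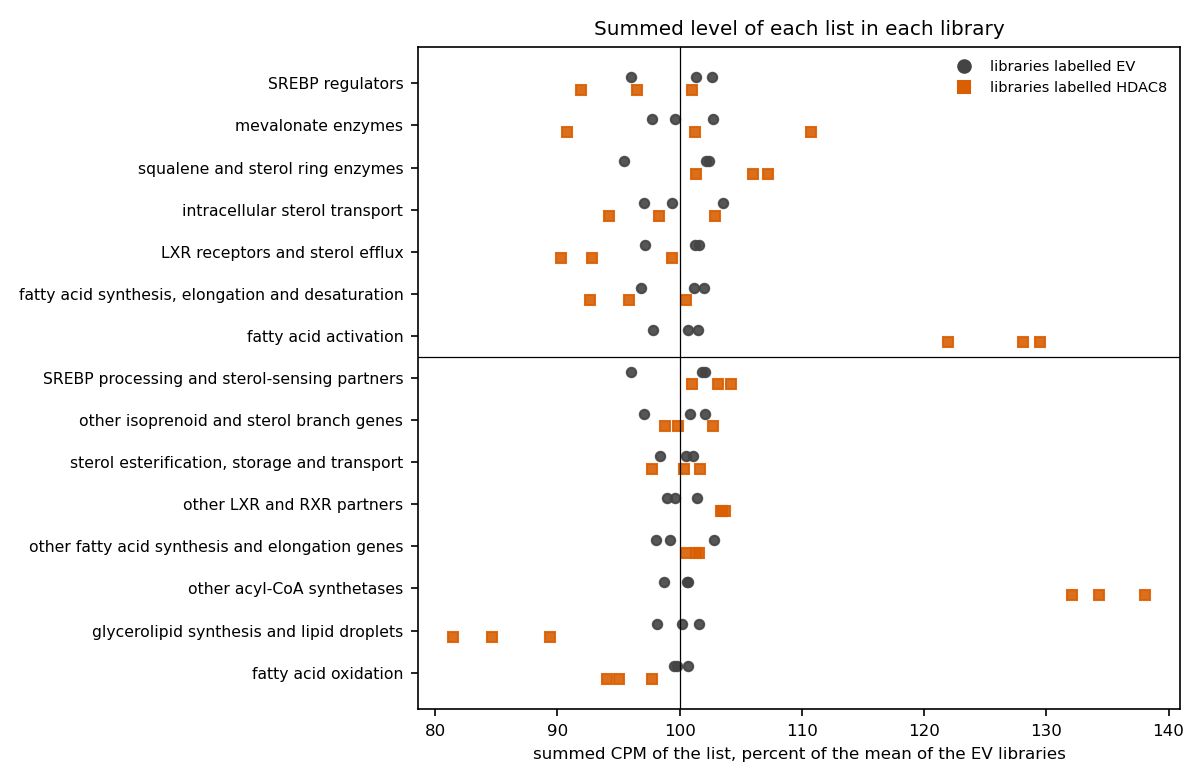
Summed CPM of each list in each library as a percent of the mean of the 3 EV libraries (x axis), with circles for the libraries labelled EV and squares for those labelled HDAC8; the lists of the 42 genes are above the line and other lipid lists below it. Fatty acid activation and the other acyl-CoA synthetases lie to the right in all HDAC8 libraries, glycerolipid synthesis and lipid droplets to the left, and the sterol lists scatter around 100 percent.

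Of the 7 member lists, fatty acid activation was the one whose summed TMM-scaled CPM did not overlap between the groups. The 18 sterol synthesis enzymes together gave 906, 855 and 913 CPM in the EV and 903, 953 and 927 CPM in the HDAC8 libraries, which overlap. The SREBP regulators, mevalonate enzymes, squalene and ring enzymes, transport and efflux lists and the fatty acid synthesis list also overlapped between the groups, with log2 ratios of the mean sums from -0.087 to 0.068. Fatty acid activation summed to 771, 749 and 778 CPM against 992, 982 and 934 CPM, a log2 ratio of 0.34. The last sum is that of the 2 genes called above. With libraries scaled by their totals in place of TMM, the LXR and efflux list did not overlap either. It then summed to 82.2 to 83.3 CPM in the EV and 74.0 to 80.6 CPM in the HDAC8 libraries.

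Levels of different genes were compared only per length, as CPM per kb of exons. SCD (243 in the EV and 221 in the HDAC8 libraries) and FASN (130.1 and 128) led by this measure, followed by ACLY (42.5 and 47.7) and ACSL3 (40.4 and 48.8), and ABCA1 (0.0769 and 0.148) and ABCG1 were lowest. Among sterol synthesis enzymes CYP51A1 (35.8 and 34.9) and FDFT1 (33.0 and 32.8) were highest and HSD17B7 (0.432 and 0.433) lowest. Other genes on the same strand cover 68.2% of the CYP51A1 exon bases, so its level is uncertain. These lengths count every annotated exon of a gene, so genes with many rare exons appear lower.

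**Figure D4:**
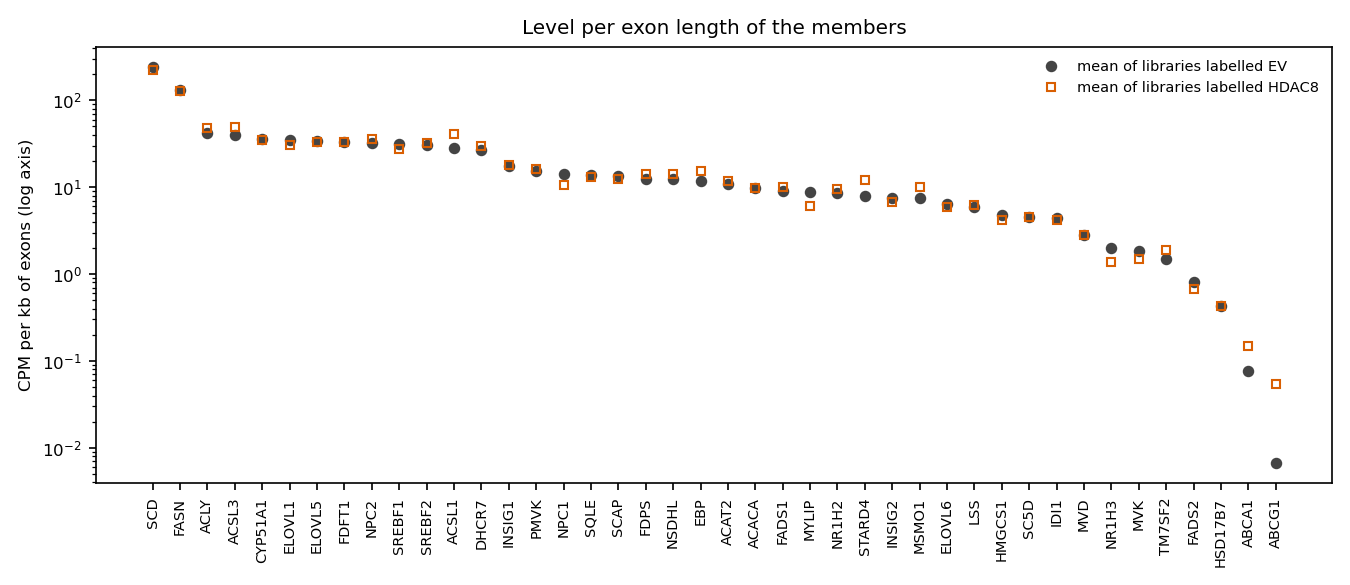
Mean level per exon length (y axis, CPM per kb, log axis) of the 42 genes, ordered by the mean of the 3 libraries labelled EV (filled circles), with the mean of the 3 libraries labelled HDAC8 as open squares. SCD and FASN stand above the rest at over 100, ABCA1 and ABCG1 lie at the low end, and for most genes the symbols touch.

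For each of the 41 tested genes the median log2 fold change of the 20 tested genes nearest to it (fewer for IDI1 and LSS) was taken, and these medians ran from -0.21 to 0.19. The extremes belonged to called genes. The neighbours of SREBF1 had a median of -0.21, close to its own -0.18, and 4 of 20 were lower and 0 higher. Around STARD4 the median was 0.19 with 6 of 20 higher and 0 lower, against 0.62 for STARD4. For ELOVL1 it was -0.12 (own value -0.18) with 3 of 20 lower and 1 higher, and for ACSL3 -0.13 (own value 0.28) with 4 of 20 lower and 2 higher. Over all tested genes 11.1% were higher and 11.7% lower, and whether the neighbours differ from these shares was not tested. The medians around the other 9 called genes lay between -0.035 (MVK) and 0.085 (MSMO1).

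Other lipid genes, in 8 lists of 118 genes by pathway, were read from the same fit. Of 111 tested, 20 were higher and 17 were lower (33.3%), beside 22.7% over all tested genes. With the 10 CPM floor used above applied to all tested genes, 29.9% were called, which is nearer to the 33.3%. Of the 111, 13 (11.7%) passed both thresholds, beside 7.52% over all tested genes and 5.21% with that floor. The 111 were not held to the floor, and whether their shares differ from these was not tested. The partners of SREBP processing and sterol sensing showed 2 higher and 3 lower of 13, all below a log2 fold change of 0.58, with a median of -0.085. Of 15 isoprenoid and sterol branch genes 1 was higher. Sterol esterification, storage and transport had 3 higher and 3 lower of 19. GRAMD1B, which carries sterol from the plasma membrane, was at 0.186, 0.226 and 0.326 CPM in the EV and 1.05, 0.740 and 0.604 CPM in the HDAC8 libraries, which are low levels. Its log2 fold change of 1.68 had an adjusted p of 0.0345, a call that was lost in 8 of 11 alternatives, among them DESeq2, the fit without the filter and those without EV replicate 1, 2 or 3 or HDAC8 replicate 1 or 2 (adjusted p up to 0.161). OSBPL5, an oxysterol-binding protein relative, was at 12.3, 13.4 and 11.3 CPM against 22.2, 18.4 and 20.1 CPM (log2 fold change 0.72, adjusted p = 0.000467). NCEH1, a hydrolase of cholesterol esters, was at 31.9, 21.1 and 25.2 CPM against 14.4, 12.5 and 10.8 CPM, with the groups apart (log2 fold change -1.05, adjusted p = 0.000341). Of 7 LXR and RXR partners 3 were higher and none lower, among them the phosphodiesterase SMPDL3A. It was at 8.03, 8.58 and 7.57 CPM against 13.6, 11.2 and 11.4 CPM (log2 fold change 0.58, adjusted p = 0.0062).

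**Figure D5:**
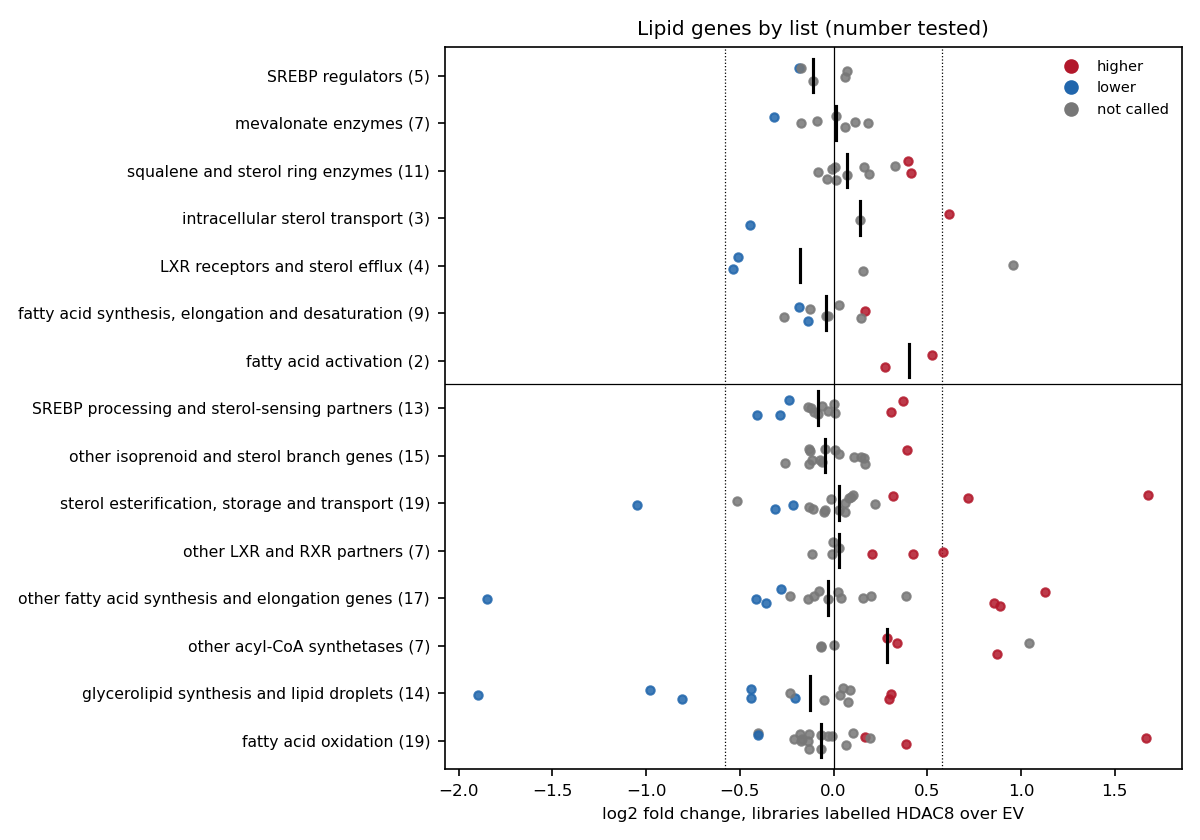
Log2 fold change (x axis, libraries labelled HDAC8 over EV) of each tested gene in the 7 lists of the 42 genes, above the line, and in the 8 other lipid lists, below it; coloured points are called, the vertical bar of each list is its median and dotted lines mark 0.58. In the upper lists STARD4 is the called gene past a dotted line, whereas the lower lists reach from -1.90 for MGLL to 1.68 for GRAMD1B.

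In the other fatty acid synthesis and elongation genes, 3 of 17 tested were higher and 4 lower, with a median of -0.028. ELOVL2, an elongase of polyunsaturated fatty acids, was at 23.4, 21.1 and 23.6 CPM in the EV and 6.18, 6.02 and 6.73 CPM in the HDAC8 libraries. It had the largest fall of this list, with -1.85 on the log2 scale (standard error 0.10, adjusted p = 1.56e-07). HSD17B12, the ketoreductase of the elongation cycle, was at 46.2, 46.2 and 43.8 CPM against 84.7, 86.2 and 81.1 CPM, which is 0.89 on the log2 scale (standard error 0.058, adjusted p = 4.98e-07). Neither gene had overlapping groups. HACD1, a dehydratase of the same cycle, was at 4.22, 4.02 and 4.03 CPM against 10.3, 9.08 and 7.46 CPM (log2 fold change 1.13, adjusted p = 0.000504). ELOVL4, an elongase of very long chains, was at 2.32, 2.48 and 2.56 CPM against 5.16, 4.39 and 3.79 CPM (log2 fold change 0.86, adjusted p = 0.0164) but was not called without EV replicate 1 or HDAC8 replicate 1 (adjusted p up to 0.0647).

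Among 7 other acyl-CoA synthetases tested, 3 were higher and none was lower, with a median log2 fold change of 0.29. SLC27A3, a fatty acid transport protein with synthetase activity, was at 128, 122 and 126 CPM in the EV and 220, 222 and 245 CPM in the HDAC8 libraries (log2 fold change 0.87, standard error 0.054, adjusted p = 3.12e-07). The list summed to 408 to 416 CPM in the EV and 545 to 570 CPM in the HDAC8 libraries.

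Glycerolipid synthesis and lipid droplet genes had 2 higher and 6 lower of 14 tested, with a median log2 fold change of -0.13 and sums of 690 to 714 CPM against 572 to 628 CPM. LPIN1, a phosphatidate phosphatase, was at 188, 190 and 181 CPM in the EV and 103, 108 and 109 CPM in the HDAC8 libraries (log2 fold change -0.81, standard error 0.048, adjusted p = 2.42e-07). DGAT2, which completes triglyceride synthesis, was at 9.93, 11.9 and 8.10 CPM against 4.92, 4.94 and 5.30 CPM (log2 fold change -0.98, adjusted p = 0.00131). MGLL, a monoglyceride lipase, was at 2.46, 2.76 and 2.03 CPM against 0.611, 0.592 and 0.733 CPM (log2 fold change -1.90, adjusted p = 0.0018). The HDAC8 libraries lay below the EV libraries for all 3. Of 19 fatty acid oxidation genes 3 were higher and 1 was lower, which is 21.1% beside the background of 22.7%, and CPT1C, a carnitine palmitoyltransferase family member, passed both thresholds at 0.9749, 1.58 and 0.895 CPM against 3.56, 3.31 and 4.10 CPM (log2 fold change 1.67, adjusted p = 0.00198).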

How the data were processed

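RNA from 3 libraries labelled EV and 3 labelled HDAC8 was analysed, with groups and replicate numbers taken from the labels. Per the Methods and the submitters' processing notes, the authors trimmed reads with Trimmomatic, aligned them with STAR to GRCh38 and deposited RSEM estimated counts per Ensembl gene without normalization. RSEM splits reads that several genes share, so 5351 to 5685 values in each library were fractions, and these were rounded, which leaves SREBF1, SREBF2, ACAT2, HMGCS1, MVK, IDI1, FDPS, CYP51A1, HSD17B7, NPC1 and ACLY less certain. The labels name the Aurum kit, ribosomal depletion and a directional NEBNext preparation, whereas the Methods name Direct-zol and TruSeq. A second deposited table with the authors' log2 fold changes, p-values and group values was not used, and 0 columns of per-sample counts were left out. The annotation release is not given in the sources used here.

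The test was edgeR 4.0.16 run under R 4.3.3 (filterByExpr, TMM, glmQLFit, glmQLFTest, no block), with Benjamini-Hochberg adjustment over 16195 genes. Standard errors were obtained by dividing each absolute log2 fold change by the root of its F statistic. Intervals are 95% intervals of that fit. GENCODE 44 (GRCh38) gave positions and exon lengths through the Ensembl identifiers, and RefSeq gave promoters. Alternatives were DESeq2 1.42.0, upper-quartile scaling, library totals, no filter, at least 10 counts in every library, the replicate number as a block, each library left out (these 12 are the alternatives counted in the text), glmTreat, the fold threshold and unadjusted p. Replicate pairs differed by more than counting noise (chi-square per degree of freedom 4.88 to 19.0). Values per library are given for called members, SREBF1, SREBF2, SCAP and the member with the highest CPM of each list. They are also given for other lipid genes past both thresholds, at most 5 per list. FASN was added after its values were seen, and the counts of ABCA1 and ABCG1 also lie outside this rule. Members and lists were chosen with earlier results of these data known. The level of 1 marker gene is not reported here. The scripts were tested on simulated data.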

Additional observations from a re-analysis of the deposited data

How the results depend on the processing

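Of the 13 called members, STARD4, ACSL1, ACSL3, MSMO1, MYLIP and NPC1 kept their call under DESeq2, upper-quartile scaling, library totals, no filter, at least 10 counts in every library, the replicate block and each library left out, and the other 7 lost it under at least 1 of these, as given with each gene. FDPS was also called with upper-quartile scaling and without HDAC8 replicate 3, SCAP without HDAC8 replicate 3, and DHCR7 and NPC2 without HDAC8 replicate 1. Libraries left out gave 4 to 8 higher and 2 to 6 lower members. Against a log2 fold change of 0.58 glmTreat called 0 members higher and 0 lower, and 4 other lipid genes in each direction, whereas the adjusted p with that fold change called 1 and 0 members and 8 and 5 other lipid genes. At an unadjusted p below 0.05 there were 11 higher and 7 lower members and 23 higher and 27 lower other lipid genes. Deviations of same-numbered libraries correlated at -0.083, -0.081 and 0.0073, and those of different-numbered libraries at -0.033 to 0.105. These values gave no sign that the replicate numbers pair the libraries, and they do not settle it. Under the replicate block, 5 members were higher and 4 were lower, and MVK, ACLY, SCD and ELOVL1 lost their call; other lipid genes stood at 16 and 17.

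Reversed signs were limited to uncalled genes. With library totals MVD was at -0.015, SC5D at -0.014 and HSD17B7 at -0.020. DESeq2 gave HSD17B7 -0.000298 and the fit without a filter -0.0030, and upper-quartile scaling gave FDFT1 0.00085. With each library left out in turn, PMVK log2 fold change ranged from -0.073 to 0.18, MVD log2 fold change from -0.075 to 0.11, FDFT1 log2 fold change from -0.051 to 0.022, LSS log2 fold change from -0.016 to 0.12, HSD17B7 log2 fold change from -0.13 to 0.13, SC5D log2 fold change from -0.035 to 0.068, ABCA1 log2 fold change from -0.035 to 1.46, ACACA log2 fold change from -0.011 to 0.056, FASN log2 fold change from -0.12 to 0.044, ELOVL5 log2 fold change from -0.089 to 0.0065, and that of HDAC8, the introduced gene, from -0.16 to 0.080. The cause was not tested. ABCG1, with at most 29 counts in a library, did not pass the filter of the main fit. It was included with DESeq2 and without the filter, where no gene of the LXR and efflux list was called higher. HSD17B7, with 36 to 62 counts per library, had an interval from -0.63 to 0.64. The median over all genes moved from 0.0091 with TMM to -0.018 with library totals.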
